A study of Mus musculus with 16 samples.

Results

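The villin family and its partners in the microvillus were examined in epithelial cells of the mouse ileum: advillin (Avil), villin 1 (Vil1), gelsolin (Gsn), the gelsolin-like capping protein (Capg), ezrin (Ezr) and brush border myosin I (Myo1a). The members were the probe sets whose single gene symbol in the platform annotation was one of these 6 names, which gave 7 probe sets for 5 genes, 3 of them for Capg, out of 8251 genes that the arrays measured by such a probe set. Myo1a was not analysed here, because the annotation used lists no probe set under its name alone. The 6 genes were selected on their log2 signal in the 3 groups, with those values already known, so their group values are a description and nothing is inferred from them.

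The data were 16 Affymetrix arrays of cells taken by laser capture. By their titles 6 were WT, 5 came from adenoma (a benign glandular tumour) and 5 from carcinoma (a malignant one). The sources used here do not give the meaning of the prefix shared by all titles, the strain, genotype, age, treatment or number of the mice, the tumour model, or how regions were chosen. No label links an array to a mouse, so some arrays of a group may share an animal, and the p-values below are then too small because they measure only the spread between captured samples. The number of arrays limits the precision.

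Microvilli are finger-like projections of the apical surface of absorptive cells, each held up by a bundle of parallel actin filaments. Villin bundles these filaments and, at high calcium, severs and caps them. Ezrin ties filaments to the membrane, and Myo1a bridges the bundle and the membrane around it. Villin, advillin, gelsolin and Capg share gelsolin-like repeats, and villin and advillin also carry a headpiece domain that binds actin. Gelsolin severs and caps filaments, while Capg caps their ends without severing. Advillin is best known from sensory neurons and from tuft cells, the chemosensory cells of the gut epithelium.

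The sequences around the start sites are shown for the member with the largest difference between tumour and WT (Avil) and for both members that were bright on every array (Vil1 and Ezr). Each is the RefSeq window of 300 bases, 250 before and 50 after the annotated start, in mouse build GRCm38.p6, 5′ to 3′ on the strand of the gene. Windows were found for all 6 genes, 8 in all. Capitals mark matches, on either strand, to 1 of 4 motifs: the CArG box bound by serum response factor (CC, a run of A or T, then GG), the AP-1 site TGANTCA, the POU octamer ATGCAAAT and the CDX site TTTATG.
Vil1, chr1:74409134-74409433, plus strand: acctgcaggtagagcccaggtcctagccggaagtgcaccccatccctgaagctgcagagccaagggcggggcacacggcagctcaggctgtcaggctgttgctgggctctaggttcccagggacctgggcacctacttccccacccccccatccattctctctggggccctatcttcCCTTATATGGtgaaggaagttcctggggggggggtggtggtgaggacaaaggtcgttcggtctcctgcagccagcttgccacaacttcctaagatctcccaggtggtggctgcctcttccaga
Ezr, chr17:6782731-6783030, minus strand: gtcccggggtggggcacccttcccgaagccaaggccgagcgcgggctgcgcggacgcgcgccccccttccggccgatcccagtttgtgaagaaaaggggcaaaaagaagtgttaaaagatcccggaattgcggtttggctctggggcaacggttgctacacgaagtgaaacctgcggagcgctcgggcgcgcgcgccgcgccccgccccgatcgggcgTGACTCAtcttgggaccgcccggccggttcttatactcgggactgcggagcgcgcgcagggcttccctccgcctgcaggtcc
Avil, chr10:127000459-127000758, plus strand: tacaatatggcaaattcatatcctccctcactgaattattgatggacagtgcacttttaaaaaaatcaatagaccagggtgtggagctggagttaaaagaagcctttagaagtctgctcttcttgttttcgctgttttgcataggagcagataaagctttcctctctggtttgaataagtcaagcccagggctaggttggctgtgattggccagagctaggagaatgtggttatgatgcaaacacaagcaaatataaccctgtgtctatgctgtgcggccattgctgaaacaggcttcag

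The Vil1 window held a CArG box, CCTTATATGG, from position -73 to -64 relative to the start site. Of 32851 windows of this length, 1.63% held a CArG box, and of the 4 actin genes with a window 3 did (Acta1, Actc1 and Actg1). The Ezr window held the AP-1 site TGACTCA from position -32 to -26, a motif found in 7.81% of windows. Neither the POU octamer (1.74% of windows) nor the CDX site (11.9%) was found in any member window, and the Avil window held none of the 4. A match is a run of letters and does not show that a factor binds there.

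Avil (probe set 102249_at), the member with the largest difference, was near background on 4 of the 6 WT arrays and well above it in both tumours. The deposited signals on WT arrays 1 to 6 were 66.6, 48.5, 81.0, 253.7, 310.2 and 40. On the adenoma arrays they were 692.1, 985.0, 507.4, 779.3 and 991.6, and on the carcinoma arrays 512.0, 331.0, 341.6, 1227.5 and 1429.4. Every tumour array lay above the brightest WT array, and WT 4 and WT 5 stood above the other 4 WT arrays. Signals below the 25th percentile of all values, 46.9, were set to that floor before log2 was taken, which held for 1 WT array, so the size of the difference is understated. On this scale the WT mean was 6.64 ± 1.2 (SD, n = 6). The adenoma mean was 9.59 ± 0.40 and the carcinoma mean 9.31 ± 1.01 (SD, n = 5 each). The log2 difference from WT was 2.95 ± 0.52 (standard error of the limma fit over all genes) in adenoma, 7.73-fold, and 2.67 ± 0.52 in carcinoma, 6.37-fold.

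Carcinoma fell into a brighter and a dimmer set for Avil, with arrays 4 and 5 at 1227.5 and 1429.4 and arrays 1 to 3 at or below 512.0. The adenoma and carcinoma ranges overlapped, and the carcinoma minus adenoma difference was -0.28 ± 0.54. In order of level, carcinoma and adenoma were thus neighbours that did not differ beyond their spread.

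Capg is a ubiquitous capping protein that is abundant in macrophages. Its probe set with the highest mean, 160106_at, read 35.7, 169.4, 151.4, 99.6, 52.9 and 39.2 on WT arrays 1 to 6. It read 235.2, 396.3, 178.2, 382.4 and 357.2 in adenoma and 154.6, 319.9, 192.6, 725.3 and 680.9 in carcinoma. All 5 adenoma arrays and 4 of the 5 carcinoma arrays lay above every WT array, and carcinoma 1 fell within the WT range. As for Avil, carcinoma 4 and 5 were the brightest of their group. The log2 difference from WT was 1.86 ± 0.45 in adenoma, 3.62-fold, and 2.07 ± 0.45 in carcinoma, 4.19-fold, with 2 WT arrays at the floor. This probe set stands for Capg in the gene counts because its mean over all 16 arrays is the highest of the 3, a rule that the tumour arrays decide. On WT arrays alone 162461_at had the higher mean log2 signal (7.58 against 6.35), so the call for Capg rests on that choice.

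The other Capg probe sets did not show this difference. Probe set 162461_at ran from 112.8 to 359.4 in WT, from 73.2 to 200.7 in adenoma and from 90.9 to 150.1 in carcinoma. It was lower by -0.73 ± 0.35 in adenoma and by -0.63 ± 0.35 in carcinoma, with overlapping groups. Probe set 161969_f_at, whose suffix marks probes that can match several related sequences, scattered widely, from 25.2 to 397.3 in WT, 41.6 to 891.7 in adenoma and 44.7 to 514.0 in carcinoma. Its differences were 0.43 ± 0.79 and 0.06 ± 0.79. With the mean of the 3 probe sets in place of 160106_at, Capg was higher by 0.52 ± 0.41 in adenoma and 0.50 ± 0.41 in carcinoma, and no longer passed the threshold.

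**Figure D1:**
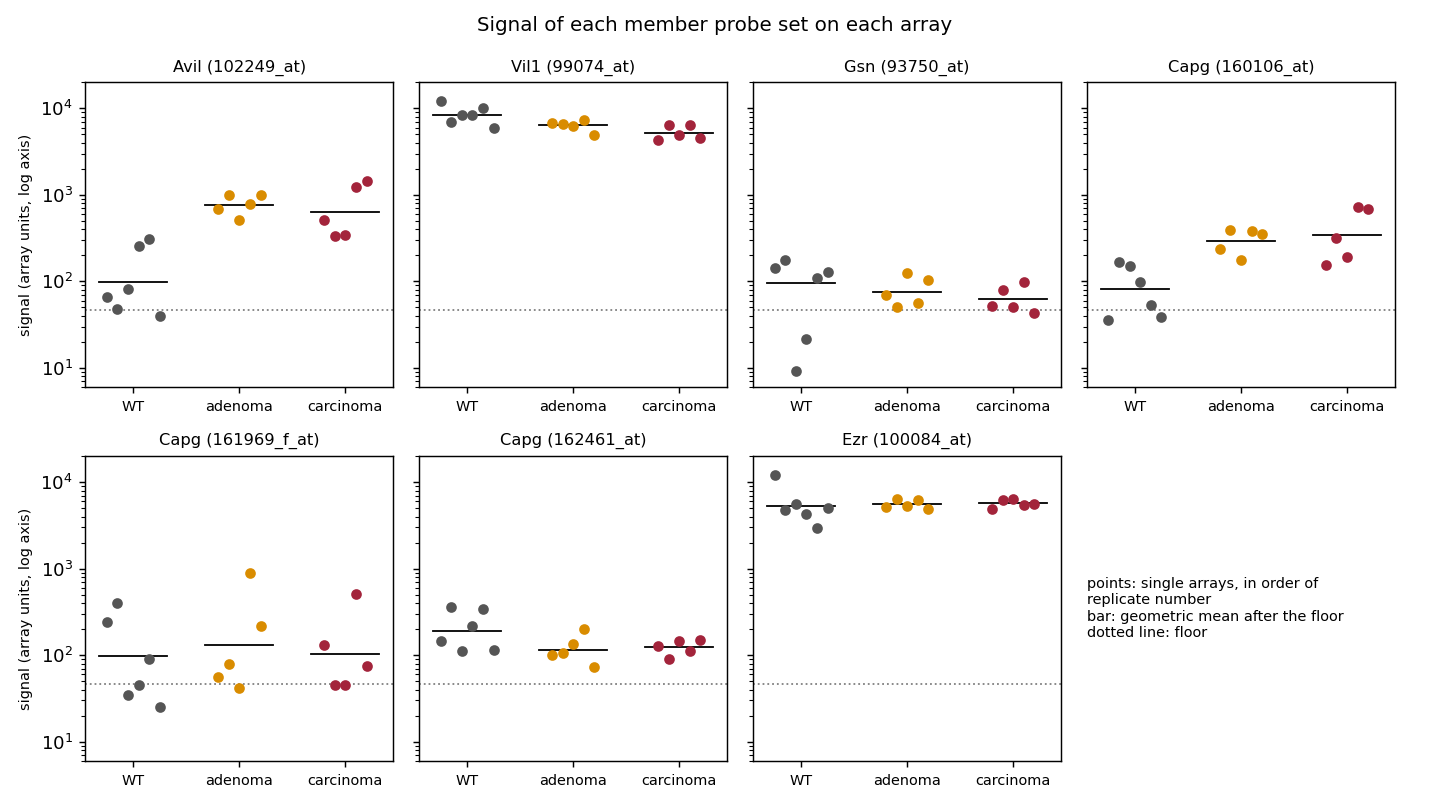
Deposited signal (array units, log axis) of the 7 member probe sets on each of the 16 arrays, by group, with a bar at the geometric mean after the floor and a dotted line at the floor of 46.9. Avil and the Capg probe set 160106_at are higher in adenoma and carcinoma, and Vil1 and Ezr stay bright on every array. Of the other Capg probe sets, 162461_at lies lower with overlapping groups and 161969_f_at scatters widely.

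Vil1 (99074_at), the filament bundler that defines the brush border core, was bright in all groups and somewhat lower in the tumours. It read 12156.7, 6920.5, 8474.0, 8393.3, 10186.5 and 5877.2 in WT, 6836.2, 6675.9, 6205.8, 7378.9 and 4918.5 in adenoma and 4342.8, 6382.7, 4972.2, 6360.6 and 4560.1 in carcinoma. WT 1 was the brightest array, 1 adenoma and 3 carcinoma arrays lay below the whole WT range, and the groups otherwise overlapped. The difference from WT was -0.41 ± 0.24 in adenoma, 1.33-fold lower, and -0.68 ± 0.24 in carcinoma, 1.60-fold lower. Carcinoma minus adenoma was -0.27 ± 0.25. These sizes shrank to -0.11 ± 0.23 and -0.36 ± 0.23 when the array medians were aligned, a scaling that moved the median of all genes from -0.14 to 0.12 in adenoma and from -0.14 to 0.15 in carcinoma. They were -0.15 ± 0.31 and -0.43 ± 0.31 without the 4 WT arrays described below.

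Markers of absorptive enterocytes were listed beside Vil1, which these cells make. Of 17 tested, 6 fell in adenoma and 0 rose, where 4.25% of all 7455 genes tested were lower, and the median log2 difference was -1.09 against -0.14 over all genes. The other 11 did not pass, among them Fabp1 at 0.94 ± 1.46, Apoa4 at 0.69 ± 1.24 and Apob at -0.04 ± 0.77. In carcinoma 8 fell and 0 rose, where 4.9% of all genes were lower, with a median of -1.82. The summed signal of the 17 ran from 17588 to 91837 on WT arrays, from 4065 to 50723 on adenoma arrays and from 2491 to 7038 on carcinoma arrays. Of 11 markers shared by gut epithelial cells, such as keratins, 0 rose and 1 fell in each tumour, and their summed signal overlapped between the groups (75087 to 204725 in WT, 69336 to 107439 in adenoma, 52514 to 125778 in carcinoma). At an unadjusted p under 0.05, a cut for which no share over all genes is given here, the count was 4 of 11 in each tumour by limma. Krt18 lay higher without passing, at 1.38 ± 0.43 in adenoma (limma adjusted p = 0.0562) and 1.24 ± 0.43 in carcinoma (0.0809). Lgals4 lay lower without passing, at -0.66 ± 0.26 and -0.74 ± 0.26. Epcam, Krt8 and Krt19 were bright in all groups, with mean log2 signals of 12.97 or more. The markers past the threshold were Cdx1 in adenoma (-1.56 ± 0.48, adjusted p = 0.0493) and Krt20 in carcinoma (-1.22 ± 0.29, adjusted p = 0.0112). The transcription factors Hnf4a and Cdx2 were dim in every group, with mean log2 signals of 5.85 and 6.62 in WT, and Hnf4a was at the floor on all 5 carcinoma arrays. Fewer enterocytes and less RNA per enterocyte cannot be told apart in bulk samples.

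Ezr (100084_at), the membrane linker, was bright in all groups, which overlapped. Its signals were 12177.8, 4756.8, 5530.1, 4313.8, 2949.3 and 5041.3 in WT, 5184.1, 6403.2, 5238.0, 6274.6 and 4948.1 in adenoma and 4849.9, 6177.3, 6333.2, 5506.3 and 5650.2 in carcinoma. WT 1 and WT 5 were the brightest and the dimmest of all 16 arrays, and every tumour array lay between them. The log2 difference from WT was 0.09 ± 0.29 in adenoma and 0.12 ± 0.29 in carcinoma, and 0.03 ± 0.30 between the tumours. Aligning the array medians gave 0.39 ± 0.29 and 0.44 ± 0.29, and leaving out WT 5 turned the sign (-0.07 and -0.05).

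Gsn (93750_at), the severing and capping protein named after the conversion of actin gels to sols, was dim everywhere. WT arrays read 141.3, 175.3, 9.1, 21.7, 109.4 and 129.6, adenoma arrays 70.2, 50.5, 124.4, 55.8 and 103.0, and carcinoma arrays 51.9, 79.2, 50.8, 98.9 and 42.8. WT 3 and WT 4 were far below the floor and the other 4 WT arrays at or above 109.4, and the tumour arrays lay above the first set, with adenoma 3 alone reaching into the second. The differences from WT were -0.33 ± 0.38 and -0.61 ± 0.38, and -0.28 ± 0.39 between the tumours. With the floor at the 10th percentile, the first became 0.11 ± 0.57, so Gsn has no settled direction in adenoma.

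Of the 5 members tested, 2 (Avil and Capg) were higher at a limma adjusted p under 0.05 in adenoma, where 4.02% of all genes tested were higher and 4.25% lower, 8.28% in all. The same 2 were higher in carcinoma, where these shares were 4.16%, 4.9% and 9.05%. In neither tumour was a member lower at this threshold. At an unadjusted p under 0.05 by limma, the counts were 2 members in adenoma and 3, Vil1 included, in carcinoma. The share of all genes at the unadjusted cut is not given here, so the shares above do not apply to these counts. The median over the members was 0.09 in adenoma and 0.12 in carcinoma. Between carcinoma and adenoma 0 of 5 members differed at a limma adjusted p under 0.05, where 0.0268% of all genes did. At an unadjusted p under 0.05 by limma the count was also 0 of 5. Both tumours were set against the same WT arrays, so the 2 comparisons are not separate evidence, and since the members were chosen with these values known, nothing is read from the counts.

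**Figure D2:**
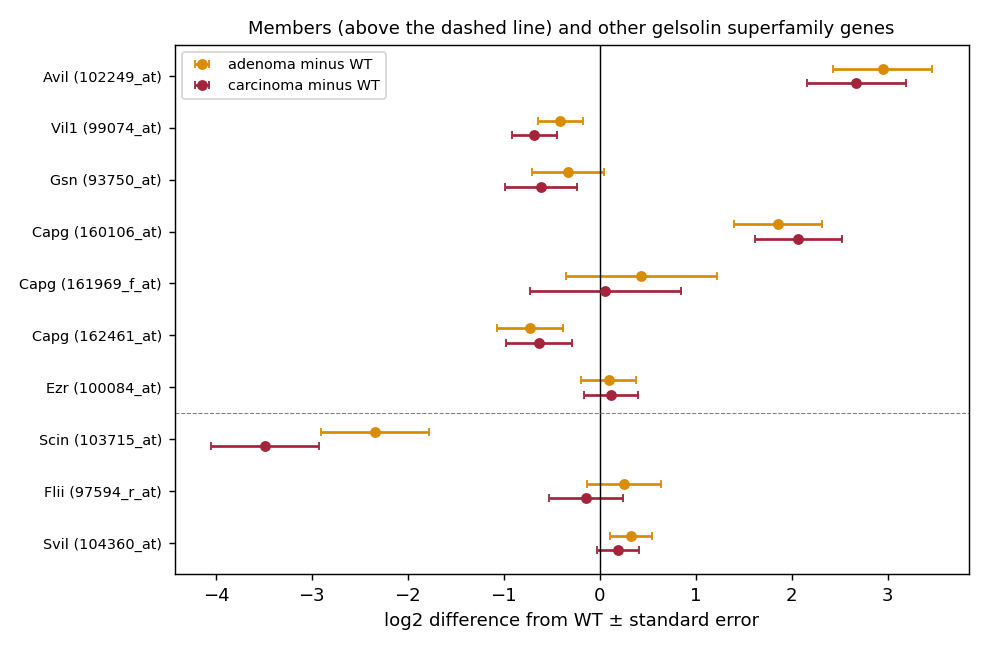
Log2 difference from WT (± standard error of the fit) in adenoma and carcinoma for the 7 member probe sets and, below the dashed line, for the 3 other measured genes of the gelsolin superfamily. Avil lies at 2.95 and 2.67, the Capg probe set 160106_at at 1.86 and 2.07, and Scin at -2.34 and -3.49.

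Technical measures moved with the same groups. Averaged as log2, the spiked-in control transcripts ran from 12.4 to 14.7 in WT, from 11.4 to 13.5 in adenoma and from 11.6 to 12.7 in carcinoma. No tumour array reached the level of WT 1, WT 2, WT 4 or WT 5. Carcinoma 4 and 5, the brightest of their group for Avil and Capg, also had its highest spike-in levels. These were 12.69 and 12.70, against at most 12.30 on the other carcinoma arrays, and a link to the split was not tested. The log2 ratio of 3′ to 5′ Gapdh signal, a measure of 3′ bias in the amplified RNA, ran from 4.09 to 5.02 in WT, from 5.52 to 6.12 in adenoma and from 4.95 to 6.45 in carcinoma. Without those 4 WT arrays, Avil was higher by 3.64 ± 0.55 in adenoma and 3.36 ± 0.55 in carcinoma and still passed. Capg was higher by 1.81 ± 0.62 and 2.02 ± 0.62 and no longer passed in either. When the Gapdh ratio, which separates WT from every tumour array but carcinoma 4, entered as a covariate, Avil was higher by 2.20 ± 0.89 and 1.99 ± 0.83 and Capg by 2.01 ± 0.80 and 2.20 ± 0.76, and neither passed in either tumour. The part of RNA quality or of amplification in these differences was not tested.

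Tuft cell markers were listed because Avil is one of them in the gut. Of 23 listed, 7 were measured and tested and 16 were not analysed here, Dclk1 and Trpm5 among them. In adenoma 1 rose and 0 fell, where 4.02% of all genes were higher and 4.25% lower. In carcinoma 1 rose and 1 fell, where these shares were 4.16% and 4.9%. The medians were -0.53 and -0.65, against -0.14 over all genes in both. By limma, 4 and 3 of the 7 had an unadjusted p under 0.05, where the share over all genes is not given here. The one that rose, Cd24a, is also a surface protein of stem and progenitor cells: it ran from 1790 to 4770 in WT, from 9943 to 18908 in adenoma and from 8264 to 20625 in carcinoma, with every tumour array above every WT array (2.41 ± 0.29, adjusted p = 3.03e-05, and 2.48 ± 0.29, adjusted p = 2.10e-05). Pou2f3, the transcription factor that specifies tuft cells, was at -0.83 ± 0.31 (adjusted p = 0.115) in adenoma and -0.85 ± 0.31 (0.0943) in carcinoma. It ran from 297.0 to 777.8 in WT, from 228.6 to 440.4 in adenoma and from 170.7 to 417.2 in carcinoma. The marker that fell in carcinoma was Spib (-1.77 ± 0.48, adjusted p = 0.0262), a transcription factor also made by B cells. In adenoma Spib was at -1.53 ± 0.48 (limma adjusted p = 0.058) and Ltc4s at -0.91 ± 0.37 (0.143), without passing. Plcg2 lay at 0.17 ± 0.39 in adenoma. The summed signal of the 7, most of it from Cd24a, ran from 3652 to 5669 in WT, from 11314 to 19661 in adenoma and from 9257 to 21146 in carcinoma, so it was higher on every tumour array. The part of tuft cells in the values of Avil was not tested.

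Neuronal markers were listed because sensory neurons are the other known setting of Avil. Of 12 measured, Snap25 and Ret were at the floor on all 16 arrays and 5 were bright enough to test. Gap43 was the single one past the threshold, and it fell in both tumours (1 of 5 in each), where 4.25% and 4.9% of all genes were lower. The medians of the 5 were -0.68 in adenoma and -0.72 in carcinoma. By limma, 3 and 1 of the 5 had an unadjusted p under 0.05, where the share over all genes is not given here. Tubb3, a neuronal tubulin, lay the other way without passing, at 0.97 ± 0.37 in adenoma (adjusted p = 0.121) and 0.43 ± 0.37 in carcinoma (0.503), from a WT mean log2 signal of 9.15. Their summed signal ran from 838 to 1916 in WT, from 1010 to 2524 in adenoma and from 729 to 1470 in carcinoma, so the groups overlapped. The part of neurons in the values of Avil was not tested.

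Macrophage and other myeloid markers, listed beside Capg, held 0 changed genes of 18 tested in adenoma and 0 of 18 in carcinoma by limma, and 5 and 4 at an unadjusted p under 0.05. The medians were -0.51 and -0.03. Their summed signal, over 20 measured genes, ran from 12193 to 24979 in WT, from 11943 to 17194 in adenoma and from 13068 to 20632 in carcinoma, and Itgam and Marco were at the floor on all arrays. Among smooth muscle markers, which go with cells rich in gelsolin, 2 of 7 fell and 1 rose in adenoma and 2 of 7 fell in carcinoma (medians -1.08 and -1.12), with Smtn at the floor on all arrays. Those that fell in both tumours were Myh11 and Acta2, and Myl9 rose in adenoma (mean log2 signal 10.77 against 9.77 in WT, adjusted p = 0.0493). Their summed signal ran from 4238 to 7235 in WT, from 2504 to 6867 in adenoma and from 1472 to 2973 in carcinoma. Of 11 fibroblast and matrix markers, 1 rose in adenoma (Fn1) and 3 rose in carcinoma (Col1a1, Fn1 and Dcn), where Col6a1 fell (medians 0.38 and 0.61). Their summed signal ran from 6294 to 11957 in WT, from 8150 to 13437 in adenoma and from 10811 to 20567 in carcinoma. Endothelial markers counted 2 higher of 9 in adenoma and 1 in carcinoma (medians 0.43 and 0.76). T, B and plasma cell markers counted 4 and 2 lower of 11 (medians -0.71 and -0.60). The summed signal of the latter ran from 2195 to 3705 in WT, from 1159 to 1898 in adenoma and from 1194 to 2442 in carcinoma. At a limma adjusted p under 0.05, 4.02% of all genes were higher and 4.25% lower in adenoma, and 4.16% and 4.9% in carcinoma. The share of all genes at the unadjusted cut is not given here. The part of these cells in the values of Gsn and Capg was not tested.

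Among the gelsolin superfamily genes outside the membership, adseverin (Scin), a calcium-dependent severing protein of secretory and epithelial cells, fell in both tumours. Its probe set 103715_at read 2513.4, 1663.0, 2033.6, 3729.7, 1117.2 and 3773.2 in WT, 1098.8, 373.2, 521.3, 128.2 and 641.7 in adenoma and 339.0, 246.6, 504.3, 167.6 and 28.2 in carcinoma. All 10 tumour arrays lay below every WT array, and carcinoma 5, the brightest for Avil, was the dimmest for Scin. The difference from WT was -2.34 ± 0.56 in adenoma (5.07-fold lower, limma adjusted p = 0.0142) and -3.49 ± 0.56 in carcinoma (11.2-fold lower, adjusted p = 4.49e-04). Carcinoma minus adenoma was -1.15 ± 0.59, which did not pass (unadjusted p = 0.0673). The adenoma call did not survive removal of the 4 WT arrays (-2.64 ± 0.82, adjusted p = 0.118), and neither survived the Gapdh covariate (-1.38 ± 0.96, adjusted p = 0.677, and -2.61 ± 0.90, adjusted p = 0.218). A second probe set, with a median signal of 29.2 below the floor, was lower by -0.67 ± 0.27 and -0.74 ± 0.27.

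The other 2 measured relatives did not pass. Supervillin (Svil), which links actin to the membrane, was at 0.33 ± 0.22 in adenoma and 0.19 ± 0.22 in carcinoma. Flightless (Flii), a regulator of actin remodelling, was at 0.25 ± 0.38 and -0.15 ± 0.38. Of its other probe sets, one was at -0.20 ± 0.32 in adenoma and -0.15 ± 0.32 in carcinoma. The other was at 0.27 ± 0.44 and -0.17 ± 0.44. Thus 1 of 3 relatives fell and 0 rose in each tumour, and villin-like (Vill) was not analysed here.

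The microvillus and brush border cytoskeleton was read from a list of 44 textbook genes without the members, of which 30 were tested. In adenoma 3 rose and 2 fell, and in carcinoma 5 rose and 3 fell, or 16.7% and 26.7% of the list against 8.28% and 9.05% of all genes. The medians, 0.00 and 0.04, lay close to those of all genes (-0.14 in both). When the 4 WT arrays were left out, the counts were 2 and 4, where those over all genes fell to 182 and 211. They were 1 and 1 with the Gapdh covariate, 3 in adenoma without adenoma 1 or adenoma 5, and 5 in carcinoma without carcinoma 1.

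Those that rose included Clic4, an intracellular chloride channel protein, which was higher by 2.21 ± 0.33 in adenoma (adjusted p = 2.76e-04) and 2.16 ± 0.33 in carcinoma (2.79e-04), with every tumour array above every WT array. Its 2 other probe sets were higher by 1.20 and 2.12 in adenoma and by 1.11 and 2.31 in carcinoma. Annexin A2 (Anxa2), which binds membranes and actin, was higher by 1.73 ± 0.33 (adjusted p = 0.00264) and 1.72 ± 0.33 (0.00247). Both Anxa2 calls were lost with the Gapdh covariate. The filament bundler plastin 3 (Pls3) was higher by 1.67 ± 0.41 (0.0166) and 1.56 ± 0.41 (0.0221). Eps8, which caps and bundles filaments at microvillus tips, and the leukocyte plastin Lcp1 rose in carcinoma, by 1.32 ± 0.32 (0.0142) and 0.93 ± 0.27 (0.036), and the Lcp1 call was lost in 11 of 28 alternative fits. The Eps8 call ended when the 4 WT arrays were dropped (1.48, adjusted p = 0.0613) and with either covariate (0.054 for Gapdh, 0.191 for spike-in). Leaving out the 4 WT arrays ended the Pls3 calls (1.12, adjusted p = 0.314, and 1.01, 0.384), as did either covariate. So did leaving out adenoma 1 or 5 in the first case (0.051 and 0.0535) and carcinoma 1 or 4 in the second (0.0669 and 0.0574).

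Those that fell were myosin 1d (Myo1d), a class I motor of the brush border, Myo7a, a motor related to that of the tip link complex, and in carcinoma Pdzk1, a scaffold under apical transporters. Myo1d was lower by -1.18 ± 0.30 in adenoma (adjusted p = 0.0174) and -1.18 ± 0.30 in carcinoma (0.0158), and both calls were lost with array medians aligned (-0.89, adjusted p = 0.0511, and -0.86, 0.051). The adenoma call was also lost without adenoma 1 or adenoma 5 (0.0548 and 0.0544). Myo7a was lower by -1.02 ± 0.23 (0.00811) and -1.03 ± 0.23 (0.00722), with every tumour array below every WT array. For both motors, leaving out the 4 WT arrays gave adjusted p from 0.167 to 0.301. Either covariate, Gapdh or spike-in, also ended the calls for both motors in both tumours, and the Pdzk1 call in carcinoma. Pdzk1 was lower by -2.71 ± 0.74 in carcinoma (adjusted p = 0.0267) but ranged from 38.0 to 2542 in WT, and its call was lost without any 1 of WT 1, WT 4, carcinoma 1, carcinoma 3 and carcinoma 5 (0.0531 to 0.0658).

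Of 35 tested genes that sever, cap, turn over or nucleate filaments, 2 rose and 0 fell in adenoma, and 2 rose and 1 fell in carcinoma, with medians of 0.03 and 0.05. These are 5.71% and 8.57% of the list, near the shares over all genes. Tropomyosin 4 (Tpm4), which coats filaments, was higher by 1.77 ± 0.27 (adjusted p = 3.38e-04) and 1.92 ± 0.27 (1.18e-04). Evl, which aids filament elongation, was higher by 1.49 ± 0.28 (0.00197) and 1.55 ± 0.28 (0.00122). Every tumour array lay above every WT array for both. With the Gapdh covariate all 4 of these calls were lost (adjusted p from 0.0781 to 0.341) and the list held 0 calls in either tumour, and dropping the 4 WT arrays ended the Evl call in adenoma too (1.56, adjusted p = 0.0572). Was, a nucleation promoter of blood cells, fell in carcinoma by 1.45 ± 0.41 on the log2 scale (0.032), a call lost with the floor at the 40th percentile (-0.49, adjusted p = 0.203) and without any 1 of 7 arrays (0.058 to 0.0734).

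The actins did not all change in 1 direction. Gamma actin (Actg1), a cytoplasmic actin of the microvillus core, was higher by 0.91 ± 0.27 in adenoma (adjusted p = 0.0422) and 1.08 ± 0.27 in carcinoma (0.0147). Smooth muscle actin (Acta2) was lower by -1.68 ± 0.46 (0.0281) and -1.94 ± 0.46 (0.0108). In carcinoma the skeletal and cardiac actins Acta1 (-1.72 ± 0.48, 0.0306) and Actc1 (-1.54 ± 0.47, 0.0468) were also lower. In all, 1 of 6 rose and 1 fell in adenoma and 1 rose and 3 fell in carcinoma. These are 33.3% and 66.7% of the list, against 8.28% and 9.05% of all genes, with medians of -0.92 and -1.13. Actg1 was the only actin above WT in either tumour. Actb, the brightest actin in WT (mean log2 signal 14.68), was at -0.81 ± 0.40 and -0.70 ± 0.40 without passing. Actg2 was at -0.87 ± 0.29 and -0.72 ± 0.29, also without passing. Acta2 is also a member of the smooth muscle list, whose other gene that fell in both tumours was Myh11. The calls for Actg1 and Acta2 in adenoma and for Acta1 and Actc1 in carcinoma were lost in 15, 11, 13 and 20 of 28 alternative fits, with no change of direction. In carcinoma the Actg1 call was lost in 3 (both covariates and without the 4 WT arrays) and the Acta2 call in 2 (both covariates), and with the Gapdh covariate the list held 0 calls in either tumour. Actins are similar enough in sequence that their probe sets may share signal. In the carcinoma to adenoma comparison, 0 genes of the 4 lists passed by limma, with 3 of 30, 0 of 3, 1 of 35 and 0 of 6 at an unadjusted p under 0.05. The share of all genes at that unadjusted cut is not given here.

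**Figure D3:**
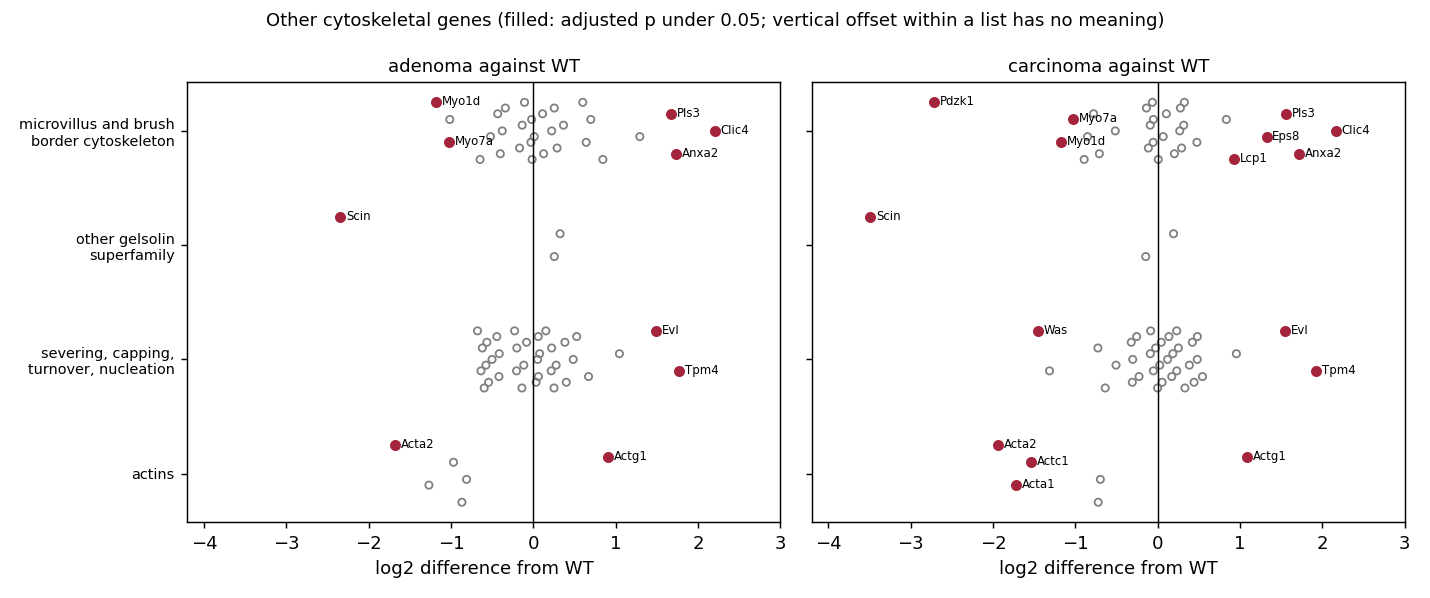
Log2 difference from WT of each tested gene of the 4 cytoskeletal lists, in adenoma (left) and carcinoma (right); filled points passed an adjusted p of 0.05 and are named. Scin (-2.34 and -3.49) lies farthest to the left in both panels, and Clic4 (2.21 and 2.16) farthest to the right.

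The genes closest to each member over the 16 arrays were found by Pearson correlation of log2 signal, as a description. The arrays share the group differences and technical measures above, so the correlation of deviations from the group means is given beside it. For Avil the 5 closest were the laminin chain Lama3 (r = 0.96, 0.85 within groups), Psapl1 (0.94, 0.81), Anxa2 (0.93, 0.76), Ptpn9 (0.92, 0.71) and Tgif1 (0.92, 0.76). Lama3 was higher by 2.98 in adenoma and 2.82 in carcinoma, sizes like those of Avil. For Capg they were the glycolytic enzyme Pkm (0.93, 0.83), Plet1 (0.89, 0.76), the glucose transporter Slc2a1 (0.89, 0.75), Wfdc18 (0.87, 0.67) and Bpifb1 (0.87, 0.65).

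For Vil1 the closest were Aamdc (0.89, 0.84), Rest (0.89, 0.84), Galm (0.86, 0.72), Ndufa2 (0.86, 0.79) and H2az2 (0.85, 0.80). For Ezr they were Set (0.81, 0.81), Wasf2 (0.81, 0.83), Sugt1 (0.78, 0.83), Plk1 (0.77, 0.78) and Fbn2 (0.76, 0.80). For Gsn they were Rps13 (0.80, 0.78), Tyms-ps (0.77, 0.78), Pctp (0.74, 0.69), Edn2 (0.72, 0.66) and Elf5 (0.71, 0.65). Among the members themselves the highest correlation was between Avil and Capg, 0.77 over all arrays and 0.34 within groups. Within groups the other pairs of members ranged from -0.44 for Avil and Ezr to 0.39 for Vil1 and Ezr.

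**Figure D4:**
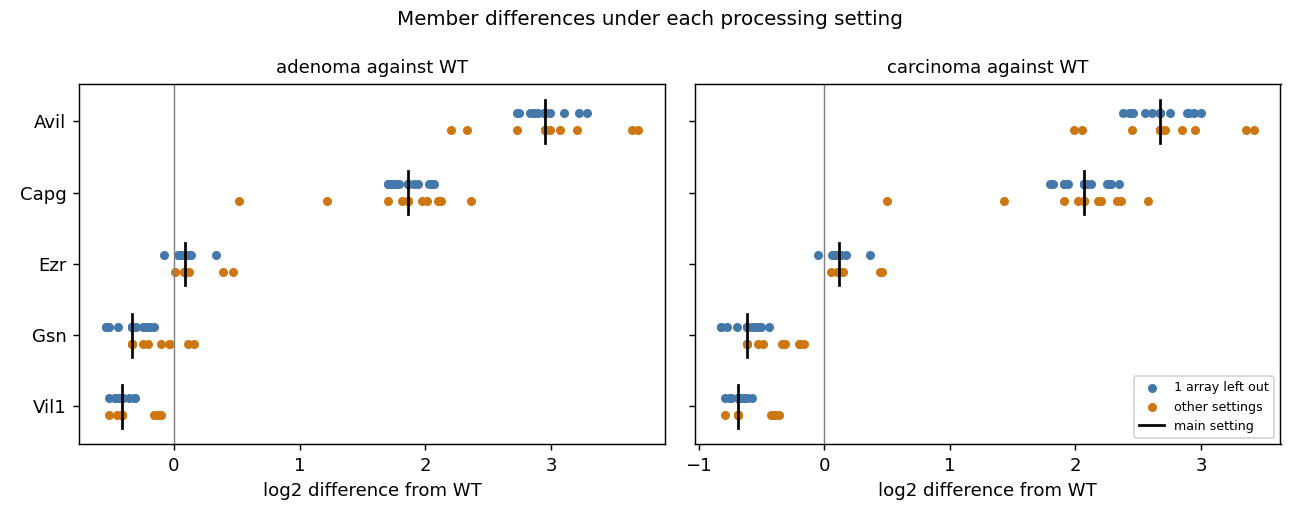
Log2 difference from WT of the 5 measured members in adenoma (left) and carcinoma (right) under each processing setting, with a black line at the reported value. Avil stays between 1.99 and 3.69, Capg drops to 0.52 and 0.50 with the mean of its probe sets, and Ezr and, in adenoma, Gsn cross zero.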

How the data were processed

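The authors deposited 1 probe set intensity per array on a linear scale for 12488 probe sets; no source used here names the software behind them. Per the labels, RNA was amplified in 2 rounds before hybridisation to MG_U74Av2 arrays. Means after trimming 2% from each tail lay between 500.3 and 500.4 on all arrays, so no further scaling was applied. Intensities below 46.9, the 25th percentile, were raised to it and log2 was taken. The 66 control probe sets were left out. Symbols came from the platform annotation (1 symbol for 10833 probe sets, several for 396, none for 1193), updated by Entrez identifier for names only. The probe set with the highest mean stood for a gene, and tests covered the 7455 genes above the floor on at least 5 arrays.

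A single limma model (version 3.58.1, under R 4.3.3) held all 3 groups (lmFit, eBayes, two-sided, Benjamini-Hochberg over all genes, 0.05). The fit was also run on simulated data of independent arrays without the technical shifts above, so that run does not bear on the calls here. Single probe sets came from the same fit over all probe sets. Members, gene lists, markers and alternatives were chosen with earlier results of these data known. All member probe sets were named, list genes past the threshold if 6 or fewer and otherwise the 3 largest in each direction, and the 5 genes closest to each member; Eps8 and Lcp1 were named after their values were seen. Alternatives were other scalings, floors, filters and probe set rules, the replicate number as a block, only 2 groups, 2 covariates, and arrays left out. Figures used matplotlib 3.10.9.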

Additional observations from a re-analysis of the deposited data

Results flagged for a closer look

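In 4 of the 81 groups examined among the probe sets and control measures of the report, 1 array stood apart from the others of its group (the gap to its neighbour, relative to the range, exceeded Dixon's 95% critical value); chance gives about 1 in 20, or about as many. None was in a member probe set. WT 4 was low for both Acta2, at 9.34 on the log2 scale against 11.19 to 11.65 on the other WT arrays, and Actc1, at 7.92 against 8.33 to 8.49. Adenoma 4 was high for Myo1d, at 10.07 against 8.68 to 9.08. Carcinoma 4 was the single carcinoma array with Was above the floor, at 6.59 against 5.55. The other 4 were all set to the floor value, so this flag follows from the floor and the chance rate does not apply to it.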

How the results depend on the processing

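Avil kept its direction in all 28 alternatives and its call in 27 in each tumour, with log2 differences from 2.20 to 3.69 in adenoma and from 1.99 to 3.42 in carcinoma. Capg kept its direction in all and its call in 25, and with the mean of its probe sets fell to 0.52 and 0.50. Vil1 passed in 0 alternatives in adenoma and in 3 in carcinoma: the floor at the 40th percentile, no filter, and without WT 6 (-0.79). Gsn was too dim to test with the floor at the 40th percentile.

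Genes called in adenoma numbered 70 with the Gapdh ratio as a covariate, 398 with the spike-in covariate and 182 when the 4 WT arrays with the highest spike-in level were left out, against 617; in carcinoma 100, 382 and 211, against 675. With 1 array left out they ranged from 385 (without adenoma 5) to 677 and from 494 to 774. The microvillus list counts were 1 and 2 in adenoma (Gapdh covariate, without the 4 WT arrays) and 1, 3 and 4 in carcinoma (with the spike-in covariate second), and 3 to 6 and 5 to 8 with 1 array left out (5 without carcinoma 1). Between the tumours, 2 genes were called, 0 with the floor at the 10th percentile or only 2 groups fitted, 5 with the floor at the 40th, 1 without a filter, 6 without the 4 WT arrays and 1 to 5 with 1 array left out (5 without WT 2, 1 without adenoma 4 or carcinoma 2). The share of calls that were higher was 48.6% in adenoma and 45.9% in carcinoma as deposited, 62.6% and 58.8% after quantile normalization and 75.8% and 73.7% with medians aligned. The causes of these shifts were not tested.

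The replicate number as a block gave 728 and 842 calls, against 617 and 675 without it, and lost none of the member calls. Same-numbered arrays of different groups deviated together in 7 of 15 pairs (r over 0.1), and 3 of 15 arrays were closest to their own number. The median r was 0.10 for same-numbered pairs (-0.27 to 0.40) and -0.03 for other pairs. The labels state no pairing, and the numbers were not taken to pair the samples. A partial link by number was not tested.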
